A study of Mus musculus with 4 samples.

Results

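The syndecans and glypicans are the 2 gene families of cell-surface heparan sulfate proteoglycans. All 10 gene symbols were looked up by name among the 21881 symbols measured, and all 10 were found: the syndecans Sdc1, Sdc2, Sdc3 and Sdc4, and the glypicans Gpc1, Gpc2, Gpc3, Gpc4, Gpc5 and Gpc6. The families were chosen by the low Sdc3 values under NR6A1 against vector, known from an earlier reading of these libraries, so Sdc3 in that comparison is described here without a test. The other 9 genes came in as relatives of Sdc3. Of the 10, 7 reached the level at which genes were tested, a 4-library mean of 1 FPKM or more; Gpc2, Gpc3 and Gpc5 did not.

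The cells were immortalised mesenchymal stem cell lines, fibroblast-like cells of adult bone marrow, from C57BL/6 mice. Every library came from cells with the genotype Dicer f/f, which the submitters describe as Dicer wild type. Clone 6 and clone 12, each a line grown from a single cell, were both infected with the puromycin-resistant retrovirus pMMP-puro, either as the empty vector (n = 2, 1 library per clone) or coding for Flag-HA-NR6A1 (n = 2, 1 library per clone). NR6A1 is an orphan nuclear receptor, known mainly as a repressor in the embryo and germ line, and the series title links its gene to repression by let-7. Expression was polyadenylated RNA in FPKM, fragments per kilobase of transcript and per 1e6 mapped fragments, so levels of different genes can be compared per length. No repeat culture of a clone and virus is named in the labels. The SD below is therefore that between the lines or, where the clones are compared, that between the viruses within a line. The SE below comes from a fit that also draws on the variance of other genes. It is not a measure of that spread alone. In bulk RNA, fewer cells with a transcript and less transcript per cell cannot be told apart.

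Heparan sulfate is a long sulfated sugar chain built onto a core protein in the Golgi. Syndecans are core proteins that span the membrane and have short cytoplasmic tails that bind the cytoskeleton and adaptor proteins, while glypicans are held to the outer membrane by a lipid anchor. Their chains bind growth factors, morphogens and matrix proteins and present them to receptors, and in mesenchymal cells they take part in adhesion and in the response to FGF and Wnt ligands.

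The libraries passed the label check on the virus: Nr6a1 was at 4.18 and 2.80 FPKM with vector (clone 6, then clone 12, as in all pairs below) and at 783 and 598 FPKM with NR6A1. Depth, inferred from the steps between low values, was 20.5 to 24.2 M reads (M, 1e6), so for a length of 2000 bases 1 FPKM equalled 36.6 to 43.3 reads. Of 12 mesenchymal stem cell markers, 11 were tested and Thy1 never exceeded 0.030 FPKM. Of the markers of other cell types, 6 of 7 endothelial genes, 6 of the 8 haematopoietic genes with a row (Spi1 had none) and 5 of 6 skeletal muscle progenitor genes stayed at or below 0.1 FPKM in every library, as did 5 of 7 epithelial genes and 3 of the 7 neural and Schwann cell genes with a row (Map2 had none). Those that reached the tested level were haematopoietic Cd68 (1.12 to 2.16 FPKM), neural Tubb3 (2.78 to 3.67), muscle Des (1.57 to 3.74) and epithelial Krt14, given below.

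The stretches of DNA just before the start of 3 members are shown first, because NR6A1 is known to bind the nuclear receptor half-site AGGTCA, best as a direct repeat of it without a gap. RefSeq (GRCm38.p6, a later build than the mm9 of the expression values) gave such windows for 7 of the 10 genes. Each window covers the 250 bases before the start, printed 5′ to 3′ on the gene's strand, with AGGTCA in capitals. Sdc3 (chr4:130792287-130792536, plus strand) is the member with the lowest values under NR6A1 relative to vector; Sdc4 (chr2:164443189-164443438, minus strand) and Gpc4 (chrX:52164924-52165173, minus strand) are the members whose windows hold the half-site.
Sdc3: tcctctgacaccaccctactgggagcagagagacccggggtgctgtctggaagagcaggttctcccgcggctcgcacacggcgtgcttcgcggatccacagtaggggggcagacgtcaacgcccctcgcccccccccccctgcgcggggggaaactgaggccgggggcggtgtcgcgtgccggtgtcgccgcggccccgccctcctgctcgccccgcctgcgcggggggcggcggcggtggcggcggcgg
Sdc4: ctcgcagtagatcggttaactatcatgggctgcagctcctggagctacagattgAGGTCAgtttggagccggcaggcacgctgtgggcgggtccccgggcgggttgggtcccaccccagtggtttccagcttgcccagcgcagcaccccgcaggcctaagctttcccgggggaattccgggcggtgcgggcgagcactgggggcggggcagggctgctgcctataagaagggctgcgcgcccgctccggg
Gpc4: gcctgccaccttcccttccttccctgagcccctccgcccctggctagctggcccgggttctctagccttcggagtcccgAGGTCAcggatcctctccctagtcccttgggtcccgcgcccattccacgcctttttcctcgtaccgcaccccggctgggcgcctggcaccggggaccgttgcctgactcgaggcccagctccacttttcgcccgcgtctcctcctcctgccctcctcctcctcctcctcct

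The search covered both strands. The half-site lay 196 bases before the start of Sdc4 and 171 bases before that of Gpc4, and the windows of Sdc1, Sdc3, Gpc2, Gpc3 and Gpc5 did not hold these letters. Among all 32851 windows of this length in the table, 14.0% held AGGTCA and 0.00609% (2 windows) held the direct repeat, which none of the 7 windows did. The window of Sdc3 had the highest GC content of the 7, at 76.4% with 32 CG dinucleotides, against a median of 52.4% and 6 over all windows. Those of Sdc1, Sdc4, Gpc2, Gpc3 and Gpc4 were also above that median, at 66.0% to 71.6%, and that of Gpc5 was at 51.2%. A match of letters describes a window and is not a binding site.

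Sdc3 was the member that differed most between the viruses. Syndecan-3 is the large syndecan of the nervous system, cartilage and muscle progenitors. It was at 239 FPKM in the vector library of clone 6, 42.6 in the vector library of clone 12, 19.6 in the NR6A1 library of clone 6 and 10.1 in the NR6A1 library of clone 12. Both NR6A1 libraries lay below both vector libraries, and the vector library of clone 6 stood far above the other 3. Averaged over the clones it was 140.7 ± 138.7 FPKM under vector and 14.9 ± 6.72 under NR6A1 (SD, n = 2), 12.2-fold lower with NR6A1 within clone 6 and 4.22-fold lower within clone 12. On the log2(FPKM + 1) scale the differences were -3.54 and -1.97, a mean of -2.76 ± 0.40 (SE of the limma fit). That SE is drawn toward the variance of other genes and understates how far apart the clones were for Sdc3. Counted from the lowest of the 11346 genes tested, Sdc3 had rank 23 in clone 6 and rank 44 in clone 12. Sdc3 was 1 of 48 genes (0.423% of those tested) at least 2-fold lower in both clones, on a scale that understates the change of low genes.

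The Sdc3 difference was larger in clone 6 than in clone 12, which could not be tested with 1 library per clone and virus. In fits with 1 library left out, which can carry no clone block, it was -1.53 when the clone 6 vector library was dropped and -3.99 when that of clone 12 was. Among all 21881 symbols in a library, Sdc3 stood at percentile 98.1 under vector and 76.2 under NR6A1 in clone 6, and at 86.8 and 66.4 in clone 12. Its transcript was still measured in all 4 libraries, with an estimated 986 reads or more in each. Antisense transcripts of 2 annotated genes overlap Sdc3 exons, and whether the authors' counting used strand is not given in the sources used here.

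The epithelial marker list moved with Sdc3, through 1 gene. Its summed level was 13.0 and 1.69 FPKM under vector and 0.787 and 0.569 under NR6A1, of which the keratin gene Krt14 made up 12.9 and 1.50 against 0.615 and 0.298 FPKM. The defining epithelial genes Epcam and Cdh1 were at most at 0.052 and 0.023 FPKM in any library.

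**Figure D1:**
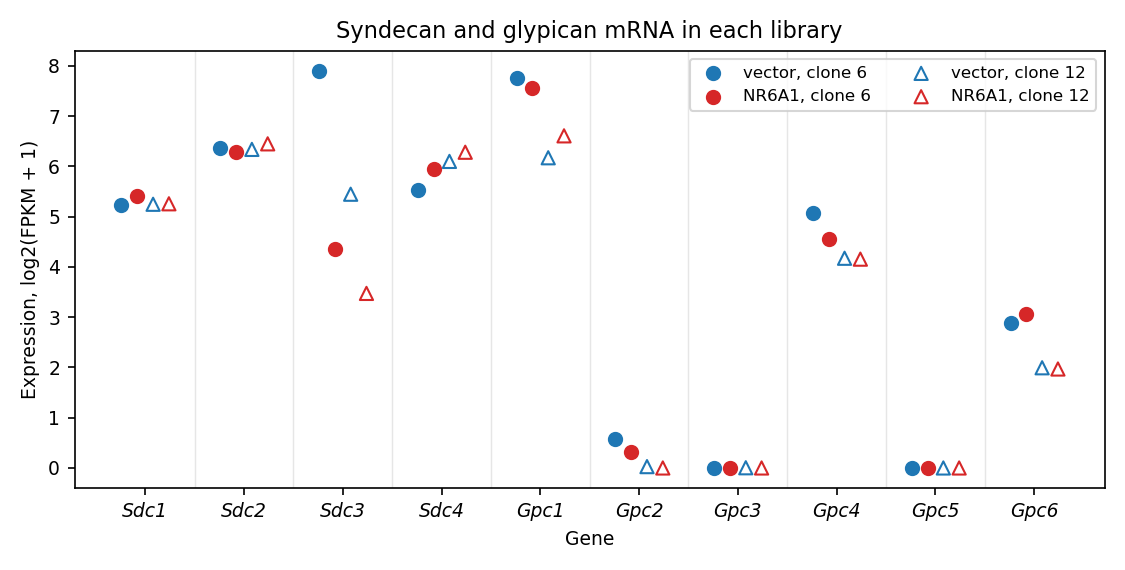
Expression of the 10 genes as log2(FPKM + 1), 1 point per library; blue is vector and red is NR6A1, filled circles are clone 6 and open triangles clone 12. Sdc3 spans the widest range of the 10, from 239 FPKM (vector, clone 6) to 10.1 FPKM (NR6A1, clone 12), while Sdc1 and Sdc2 lie close together in all 4 libraries.

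Among the other syndecans, Sdc1 and Sdc2 held nearly the same level in every library. Sdc1, the syndecan of epithelia and plasma cells (CD138), was at 36.4 and 37.0 FPKM under vector and 41.3 and 37.2 under NR6A1. The 4 values spanned only 36.4 to 41.3 FPKM, and both NR6A1 values were above both vector values. Sdc2, a syndecan of mesenchymal cells, was at 81.5 and 79.9 FPKM under vector and 76.8 and 86.3 under NR6A1, so the groups overlapped. Their log2 differences between viruses were 0.09 ± 0.08 and 0.013 ± 0.085 (SE).

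Sdc4, the syndecan of focal adhesions that binds fibronectin together with integrins, was higher with NR6A1 within each clone. It was at 45.3 and 67.5 FPKM under vector and 60.6 and 76.8 under NR6A1, 1.34-fold higher in clone 6 and 1.14-fold higher in clone 12. The groups overlapped, since the vector library of clone 12 lay above the NR6A1 library of clone 6. The log2 difference was 0.30 ± 0.09 (SE), with 0.41 in clone 6 and 0.18 in clone 12. It was 0.014 in the fit without the vector library of clone 6. That fit had no clone block and set both NR6A1 libraries against the vector library of clone 12 alone, so the clone difference entered it.

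Per length, Sdc3 was the leading syndecan in 1 of the 4 libraries. Sdc3 made up 59.4% of the summed syndecan FPKM in the vector library of clone 6 and 18.8% in that of clone 12, and 9.89% and 4.80% with NR6A1. Sdc2 was the highest syndecan in the other 3 libraries, at 35.2% to 41.0% of the sum, and at 20.3% in the vector library of clone 6. The sum of all 4 was 402 and 227 FPKM under vector and 198 and 210 under NR6A1. Without Sdc3 the sum was 163 and 184 FPKM under vector and 179 and 200 under NR6A1, higher with NR6A1 in each clone.

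**Figure D2:**
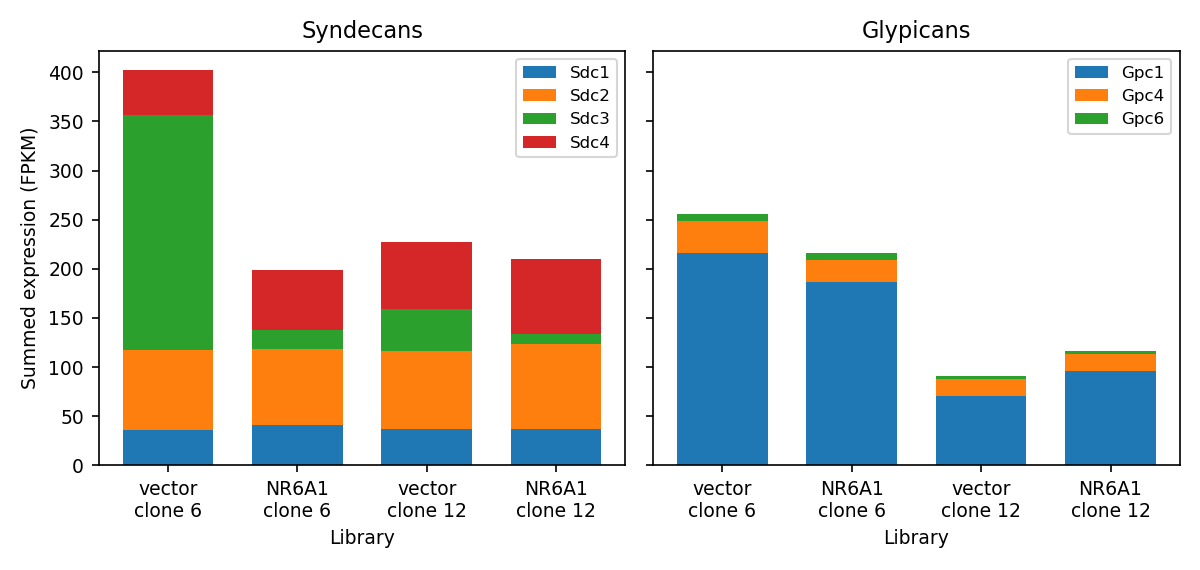
Summed FPKM of the syndecans (left) and of the 3 glypicans above 1 FPKM on average (right) in each library, with 1 colour per gene. The Sdc3 segment fills 59.4% of the tallest syndecan bar (vector, clone 6), and Gpc1 fills most of every glypican bar.

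Of the glypicans, Gpc1, Gpc4 and Gpc6 were expressed and Gpc2, Gpc3 and Gpc5 were near or at 0. Gpc1, a widely expressed glypican that binds FGF2, was at 216 and 71.1 FPKM under vector and 186 and 96.5 under NR6A1. It was lower with NR6A1 in clone 6 and higher in clone 12, and the groups overlapped (mean 143.8 ± 102.8 and 141.5 ± 63.6 FPKM, SD, n = 2). Gpc1 made up 78.0% to 86.1% of the summed glypican FPKM in each library. Exons of Ankmy1 overlap those of Gpc1 on the opposite strand; Ankmy1 was at most at 0.156 FPKM.

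Gpc4, a glypican known in synapse formation, was at 32.6 and 17.0 FPKM under vector and 22.6 and 16.8 under NR6A1. It was 1.44-fold lower with NR6A1 in clone 6 and 1.01-fold lower in clone 12. Nearly all of the log2 difference (-0.26 ± 0.14, SE) thus came from clone 6, and within clone 12 it was -0.018. In the fit without the vector library of clone 6 it was 0.19. That fit had no clone block, so the clone difference entered it. Gpc6, a glypican of the growth plate, was at 6.42 and 2.98 FPKM under vector and 7.33 and 2.92 under NR6A1. The NR6A1 and vector values of each clone lay closer to each other than the clones did.

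The 3 remaining glypicans gave little or no signal. Gpc2, a glypican of developing neurons that shares exons with the annotated gene Gm43720, was at 0.498 and 0.0188 FPKM under vector and 0.245 and 0 under NR6A1, an estimated 48.7, 1.74, 20.9 and 0 reads. Gpc3, which restrains growth and hedgehog signalling in the embryo, was at most at 0.00300 FPKM, less than the level of 1 read. Gpc5 was listed at 0 in every library. Gpc3 is the neighbour of Gpc4 on the X chromosome and Gpc5 that of Gpc6 on chromosome 14, with 0 protein-coding genes between them in RefSeq, so 1 gene of each neighbouring pair was expressed and the other was not detectable at this depth.

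In order of level, Sdc3 and Gpc1 led in the vector library of clone 6 (239 and 216 FPKM), followed by Sdc2, Sdc4, Sdc1, Gpc4 and Gpc6. In the vector library of clone 12, Sdc2 (79.9), Gpc1 (71.1) and Sdc4 (67.5) were followed by Sdc3 (42.6) and Sdc1 (37.0). With NR6A1, Gpc1 was first in both clones, followed by Sdc2, Sdc4 and Sdc1, and Sdc3 stood below Gpc4. Over the 4 libraries the ranges of Sdc4 (45.3 to 76.8) and Sdc2 (76.8 to 86.3) met at 76.8 FPKM, and that of Sdc1 lay below both.

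Across all genes tested, NR6A1 against vector was fitted with limma on log2(FPKM + 1), with the clone as a block. In this comparison 0.0353% of all genes passed an adjusted p of 0.05 (4 of 11346). Since the families were chosen for a member of this comparison, no p of a syndecan or glypican is given for it, and nothing is read from the counts that follow. Sdc3 was lower and Sdc1 higher in both NR6A1 libraries than in both vector libraries, which held in these directions for 10.7% and 9.68% of all genes. In 3 of the 7 (Sdc2, Gpc1, Gpc6) the clones went opposite ways, against 41.1% of all genes.

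**Figure D3:**
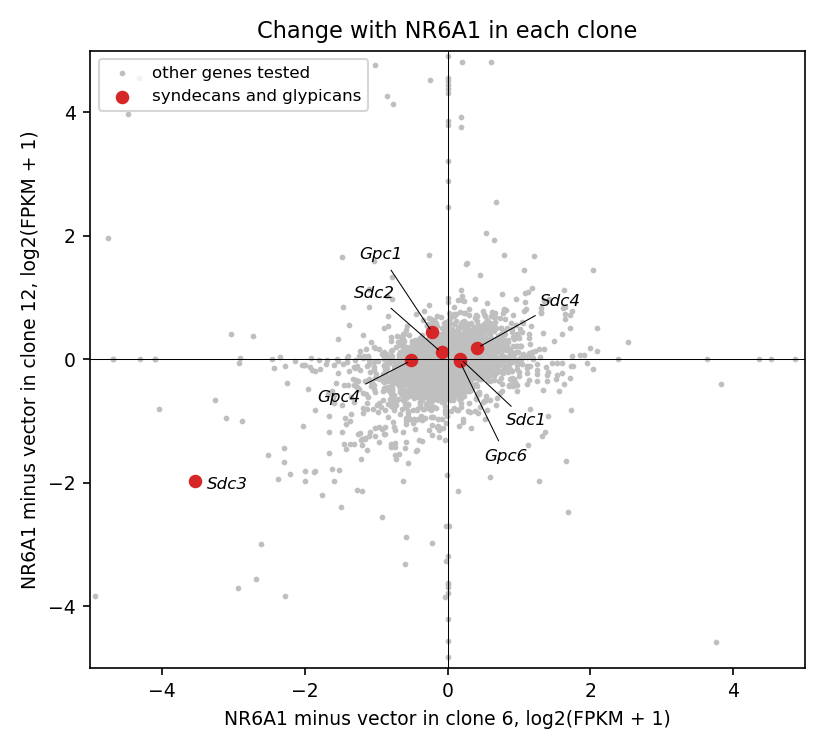
NR6A1 minus vector on the log2(FPKM + 1) scale in clone 6 (x axis) and clone 12 (y axis) for all 11346 genes tested (grey) and the 7 tested syndecans and glypicans (red); 50 genes lie outside the axes. Sdc3 lies at -3.54 and -1.97, apart from the other 6 members, which stay within the central cloud.

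The second comparison set clone 12 against clone 6 in the same fit, with the virus as a block. The libraries of a clone carried different viruses and were taken as repeats of that line. Of the glypicans, Gpc1 and Gpc6 were lower in clone 12. Gpc1 averaged 201.5 ± 21.2 FPKM in clone 6 and 83.8 ± 18.0 in clone 12 (SD, n = 2, both viruses), a log2 difference of -1.27 ± 0.18 (SE, limma adjusted p = 0.0269). It was -1.59 under vector and -0.94 under NR6A1, further apart than this SE, which draws on other genes, would imply. Gpc6 averaged 6.87 ± 0.643 against 2.95 ± 0.0470 FPKM (-0.99 ± 0.12, limma adjusted p = 0.0224). Gpc4 averaged 27.6 ± 7.02 against 16.9 ± 0.156 FPKM (-0.65 ± 0.14), with a limma adjusted p of 0.0501 that did not pass. For each of these 3 glypicans both libraries of clone 12 lay below both of clone 6, as for 30.3% of all genes.

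Sdc4 went the other way, at 53.0 ± 10.8 FPKM in clone 6 and 72.2 ± 6.54 in clone 12 (SD, n = 2; log2 difference 0.45 ± 0.09, limma adjusted p = 0.0430). Both values of clone 12 were above both of clone 6, as for 37.7% of all genes. This call was lost without the virus block (adjusted p = 0.131 in limma), with quantile normalisation (0.0560), upper quartile scaling (0.0520), no variance trend (0.0701) and no filter (0.103). No filter also ended the calls of Gpc1 (0.0931) and Gpc6 (0.0843). Sdc1 and Sdc2 did not pass (log2 differences -0.06 ± 0.08 and 0.07 ± 0.08, SE; limma adjusted p = 0.599 and 0.573). In total 3 of the 7 passed, 2 lower and 1 higher in clone 12, where 21.9% of all genes passed (10.5% lower, 11.5% higher).

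For Sdc3 the clones stood further apart under vector than under NR6A1, a difference that was not tested. Clone 6 was 5.60-fold above clone 12 with vector and 1.94-fold above it with NR6A1, and the clones' values overlapped across viruses. The log2 difference of clone 12 from clone 6 was -1.68 over all 4 libraries, with -2.46 under vector and -0.89 under NR6A1. It was 0.094 in the fit without the vector library of clone 6. That fit had no virus block, so the difference between the viruses entered it. For Gpc1 the clones differed 3.05-fold with vector and 1.93-fold with NR6A1, and for Gpc6 2.15-fold and 2.51-fold. With any 1 of the 4 libraries left out, in fits without a block, the calls of Gpc1 and Sdc4 were lost (adjusted p 0.0675 to 0.146 and 0.0679 to 0.405 in limma), and that of Gpc6 was lost in 3 of the 4 fits, all but that without the NR6A1 library of clone 6 (0.0495 to 0.167).

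Genes whose profile over the 4 libraries was nearest to that of Sdc3 were found by the Euclidean distance of log2(FPKM + 1) values centred on each gene's mean, among 9288 genes averaging 5 FPKM or more. They were Sfrp2, a secreted Wnt modulator (distance 1.43), Zfp503, a zinc finger gene (1.50), Cxcl14, a chemokine gene (1.58), Plxdc2, a membrane protein gene (1.64), and Insc, a gene of spindle orientation (1.65). Zfp503 was at 21.0 and 5.40 FPKM under vector and 5.07 and 2.63 under NR6A1, and Insc at 51.8 and 2.19 against 6.15 and 0.596. Cxcl14 was at 16.3 and 1.93 against 4.48 and 0.299 FPKM, and Plxdc2 at 22.9 and 4.07 against 7.88 and 0.842. Like Sdc3, each was highest in the vector library of clone 6 and lowest in the NR6A1 library of clone 12. Unlike for Sdc3, the virus groups overlapped for Cxcl14, Plxdc2 and Insc. Their vector value in clone 12 lay below their NR6A1 value in clone 6. With 4 libraries, a near profile is a description only.

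**Figure D4:**
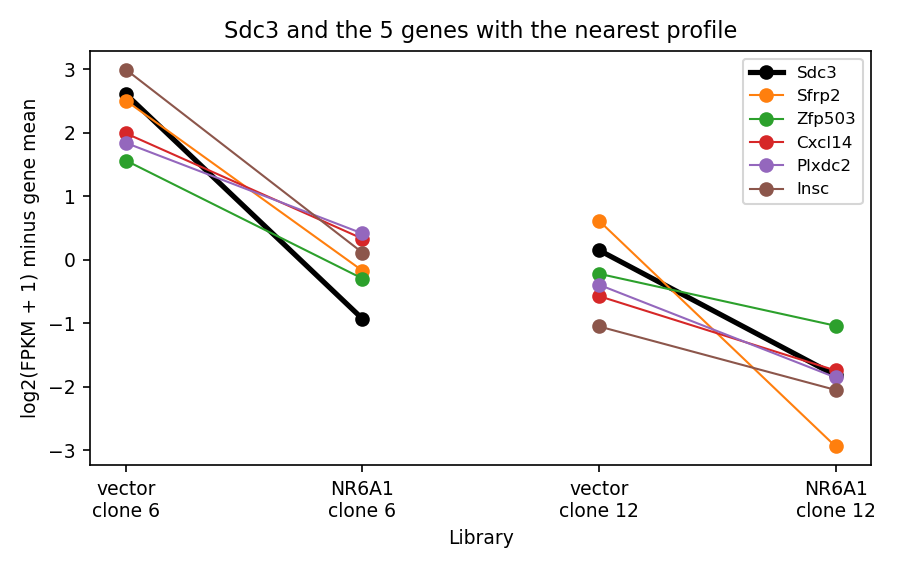
Log2(FPKM + 1) minus the gene's own mean over 4 libraries for Sdc3 (black) and the 5 genes nearest to it by Euclidean distance (1.43 to 1.65); lines join the libraries of 1 clone. Each gene is highest in the vector library of clone 6 and lowest in the NR6A1 library of clone 12.

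The rest of the heparan sulfate pathway was read from 10 lists with 119 genes, of which 118 had a row (all but Hs3st4) and 84 were tested. None of the 84 passed for NR6A1 against vector in limma. At an unadjusted p under 0.05 stood 18 of them (21.4%), against 8.48% of all genes. The lists were chosen with earlier results of these data known, so nothing is read from this share or the counts that follow. On the log2(FPKM + 1) scale none was at least 2-fold lower or higher in both clones, where 0.423% and 0.106% of all genes were. In FPKM itself 2 of the 84 were at least 2-fold lower in both clones (Hpse and Pdgfb) and 1 was higher (Hs3st3a1), where 1.09% and 0.502% of all genes were. Of the 84, 32 were higher and 20 lower in both clones, and 32 went opposite ways; over all genes tested the shares were 28.9%, 29.4% and 41.1%. The median log2 difference was 0.030, against 0.00098 over all genes.

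Of the enzymes that start and extend the chain, 9 of 11 were tested, with 4 higher and 1 lower in both clones. Ext1 and Ext2 together form the polymerase. Ext1 was the 1 gene lower in both, at 55.3 and 38.2 FPKM under vector and 37.0 and 31.0 under NR6A1, a log2 difference of -0.43 ± 0.10 (SE; limma adjusted p = 0.438). Ext2 was at 71.2 and 48.4 against 78.4 and 49.4 FPKM. The linker enzyme gene B3gat3 was at 39.5 and 39.1 against 40.1 and 37.7, and the xylose kinase gene Fam20b at 32.9 and 29.8 against 34.0 and 30.3. For the precursor genes, all 8 were tested, 2 higher and 1 lower in both clones; Ugdh, which makes UDP-glucuronate, was at 84.5 and 139 FPKM against 98.6 and 129. The other precursor genes named by level were Ugp2 (58.3 and 43.4 against 58.7 and 42.6), Papss1, for the sulfate donor (48.8 and 52.1 against 47.7 and 44.1), and its transporter gene Slc35b2 (51.3 and 44.7 against 52.7 and 43.0).

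Of 16 chain modification genes 9 were tested, 3 higher and 4 lower in both clones. Ndst1, which starts sulfation, was at 19.8 and 21.8 FPKM under vector and 24.0 and 25.0 under NR6A1. The epimerase gene Glce was at 14.7 and 28.0 against 15.7 and 26.1 FPKM, the 2-O-sulfotransferase gene Hs2st1 at 28.6 and 20.5 against 24.0 and 19.8, and the 6-O-sulfotransferase gene Hs6st1 at 18.1 and 12.7 against 11.2 and 11.1. Chosen after seeing its values, the 3-O-sulfotransferase gene Hs3st3a1 was at 2.12 and 0.818 FPKM against 5.58 and 2.44, a log2 difference of 0.999 ± 0.145 (SE; limma adjusted p = 0.262).

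Of 15 genes for trimming chains or releasing core proteins, 10 were tested, 4 higher and 2 lower in both clones. Mmp14, a membrane protease that can shed syndecans, was at 156 and 63.6 FPKM under vector and 154 and 66.2 under NR6A1, and the protease gene Adam10 at 36.0 and 41.2 against 40.7 and 45.4. Timp3, an inhibitor of such proteases, was at 58.5 and 39.5 FPKM against 104 and 69.7 (log2 difference 0.81 ± 0.07, SE; limma adjusted p = 0.142). Adamts1, a protease gene, was at 41.4 and 14.0 against 18.2 and 15.8. Heparanase (Hpse), chosen after seeing its values, was at 1.55 and 2.82 against 0.508 and 0.895 FPKM. The lysosomal genes that break the chains down were all tested (8 of 8), with 3 higher and 2 lower in both clones; Ids, a sulfatase gene, was at 30.7 and 24.7 FPKM against 29.5 and 26.9, Hgsnat at 28.1 and 20.9 against 27.6 and 20.4, and Gusb at 38.0 and 38.2 against 40.2 and 37.0.

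On the cytoplasmic side, 6 of 8 genes for partners of syndecan tails were tested, 4 higher and 1 lower in both clones. Sdcbp, which codes for the tail-binding adaptor syntenin, was at 92.9 and 142 FPKM under vector and 91.8 and 139.6 under NR6A1, and its partner Pdcd6ip (ALIX) at 40.2 and 60.5 against 46.7 and 62.9. Gipc1, an adaptor gene, was at 66.1 and 67.3 against 70.2 and 71.3 FPKM, and the kinase gene Prkca at 12.9 and 15.0 against 13.5 and 13.5. Other carriers of heparan sulfate had 6 of 7 genes tested, 3 higher and 1 lower in both. The matrix proteoglycan genes Hspg2 (perlecan; 80.5 and 78.2 against 81.5 and 83.0) and Agrn (agrin; 14.9 and 21.2 against 19.7 and 24.8) were among them, and Cd44 was at 50.1 and 69.5 against 48.6 and 73.8 FPKM. The co-receptor gene Nrp1 was at 26.1 and 14.9 against 18.1 and 18.4.

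Of 17 heparin-binding growth factor genes 8 were tested, 2 higher and 4 lower in both clones. Pdgfa, a PDGF ligand gene, was at 64.2 and 26.9 FPKM under vector and 20.4 and 17.1 under NR6A1 (log2 difference -1.12 ± 0.26, SE; limma adjusted p = 0.438). The chemokine gene Cxcl12 was at 249 and 137 against 209 and 107, Fgf7 at 91.2 and 60.4 against 85.8 and 55.3, and Vegfa at 40.6 and 51.4 against 34.5 and 52.5 FPKM. Pdgfb, another PDGF ligand gene, was at 0.749 and 3.22 against 0.0517 and 0.444 FPKM. Pleiotrophin (Ptn) and midkine (Mdk), ligands of syndecan-3 chosen after seeing their values, were low: Ptn at 0.293 and 0.0239 against 1.66 and 0 FPKM, and Mdk at 0.498 and 0.859 against 0.590 and 0.557.

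The receptors that act with heparan sulfate had 11 of 16 genes tested, 5 higher and 2 lower in both clones. Lrp1, an endocytic receptor gene, was at 133 and 73.9 FPKM under vector and 181 and 97.7 under NR6A1. Pdgfrb was at 46.3 and 44.1 against 56.3 and 43.5, and Ptprs, a phosphatase receptor for heparan sulfate, at 46.2 and 43.6 against 51.3 and 42.1. Smo, of hedgehog signalling, was at 62.6 and 38.8 against 68.1 and 43.1. Fgfr2, chosen after seeing its values, was at 29.9 and 5.19 against 8.52 and 4.85 FPKM. Of 13 matrix and integrin genes 9 were tested, 2 higher and 2 lower in both clones. Tenascin C (Tnc) was at 421 and 19.0 FPKM under vector and 62.6 and 24.9 under NR6A1, and thrombospondin 1 (Thbs1) at 657 and 221 against 274 and 172. Tnc, Thbs1, Fgfr2, Pdgfa and Adamts1 all had their highest value in the vector library of clone 6, as Sdc3 did. So did other genes named above, among them Ext1, Mmp14, Cxcl12 and Fgf7, and the share over all genes was not counted. In clone 12, Tnc and Adamts1 were higher with NR6A1, where Sdc3 was lower. Fibronectin (Fn1), the matrix ligand of syndecan-4, was at 380 and 241 against 352 and 280 FPKM, and Itgb1 at 326 and 277 against 313 and 313.

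**Figure D5:**
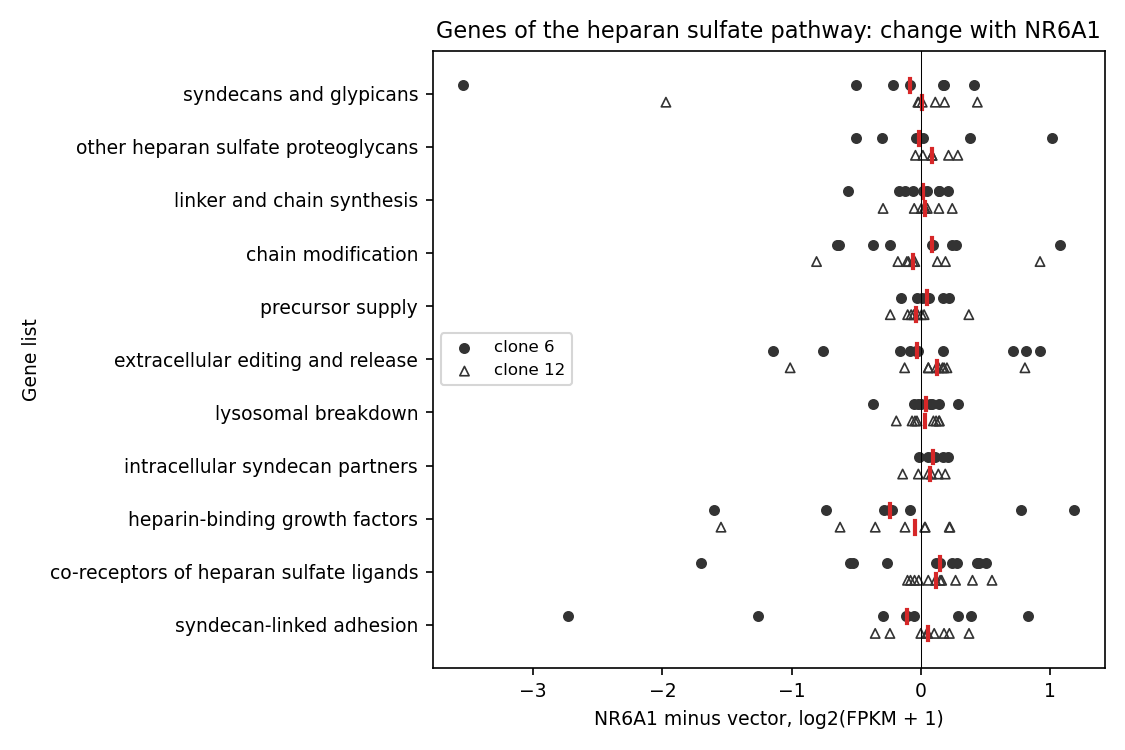
NR6A1 minus vector on the log2(FPKM + 1) scale for the tested genes of the 2 families and of 10 lists of the heparan sulfate pathway; filled circles are clone 6, open triangles clone 12, and red bars the median per clone. The point furthest left is Sdc3 in clone 6 (-3.54), and the medians of all rows lie between -0.24 and 0.15.

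Between the clones, 13 of the 84 genes were higher and 18 lower in clone 12 at an adjusted p of 0.05 in limma, where 11.5% and 10.5% of all genes were. Mmp14 was lower in clone 12 (log2 difference -1.24, adjusted p = 0.0109 in limma), as were Ext2 (-0.60, 0.0231) and Lrp1 (-0.86, 0.0156). Sdcbp was higher in clone 12 (0.60, limma adjusted p = 0.0215), as were Glce (0.79, 0.0205) and Cd44 (0.53, 0.0273).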

How the data were processed

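Messenger RNA of 4 libraries was analysed: clone 6 and clone 12, each with vector or NR6A1. The authors deposited FPKM values, 1 for each gene and library, made with TopHat 1.2.0 and Cufflinks 1.0.3 on mm9, per the submitters' processing notes; gene annotation and strand setting: not given in the sources used here. No counts were used: depth was inferred from 1823 genes with 1 annotated length of at least 1500 bases, where 50.1% to 52.7% of values under 10 inferred reads lay within 0.1 of a whole read (20% by chance), so depths and read numbers are estimates, made with the longest GENCODE transcript.

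The test was limma 3.58.1 (R 4.3.3), two-sided, on log2(FPKM + 1) of the 11346 genes averaging 1 FPKM or more, with a variance trend, virus and clone in 1 model, and Benjamini-Hochberg adjustment over all genes at 0.05. It had 1 residual and 2.9 prior degrees of freedom. The method was tested on simulated data modelled on the genes without short RNA genes. The reported fit included those genes, so the simulation does not show how it behaves with them. Libraries of 1 clone number come from 1 line, per the labels' protocols, and the clone difference correlated across genes between viruses with r = 0.628 (0.873 without 197 short RNA genes). Members and lists were chosen with earlier results of these data known. Named were all members, Nr6a1, in each list genes past the threshold or at least 2-fold different in both clones (log2(FPKM + 1) scale) and the 4 others with the highest mean, and the 5 genes nearest to Sdc3; other names were chosen after values were seen. A gene that this rule names is not reported here. Alternatives were pseudocounts of 0.1 and 5, no filter and one at 5 FPKM, quantile and upper quartile scaling, no trend, a robust prior, no block, no short RNA genes, a false discovery rate of 0.1 and each library left out.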

Additional observations from a re-analysis of the deposited data

Results flagged for a closer look

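In 3 genes the clones moved in opposite directions with NR6A1. For Gpc1 the log2 difference was -0.21 in clone 6 and 0.44 in clone 12, which is -0.65 for clone 6 minus clone 12. For Sdc2 it was -0.08 and 0.11 (-0.20), and for Gpc6 0.17 and -0.024 (0.19). With 1 library per clone and virus the difference between the clones was not tested, and 41.1% of all genes tested also went opposite ways.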

How the results depend on the processing

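For NR6A1 against vector 4 genes passed in the fit as reported, against 25 at a false discovery rate of 0.1, 7 with a pseudocount of 5, 2 with no filter, 38 with a robust prior, 51 without short RNA genes (10 higher, 41 lower) and 0 with any 1 library left out (limma; 96 to 286 genes at an unadjusted p under 0.05). For clone 12 against clone 6 the 2490 genes became 4163 at a false discovery rate of 0.1, 0 with no filter (5360 at an unadjusted p under 0.05), 1581 with no variance trend, and 41 to 889 with 1 library left out. Without the block, 4 genes passed for NR6A1 against vector (no clone block) and 1993 for clone 12 against clone 6 (no virus block). The cause of these shifts was not tested.

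For NR6A1 against vector none of the 7 syndecans and glypicans changed direction under an alternative with all 4 libraries. Only the pseudocounts and the quantile and upper quartile scaling could move these estimates. The other alternatives with 4 libraries leave the estimate as it is, so no direction could change under them. With 1 library left out, which leaves no block, the difference between the clones enters that between the viruses, and the reverse. Such fits cannot show whether a direction within a clone or virus holds. In them Sdc3 ran from -3.99 to -1.53, and Sdc1 and Sdc4 also kept their sign. Gpc1 (-0.69 to 0.91), Gpc4 (-0.71 to 0.19), Gpc6 (-0.47 to 0.62) and Sdc2 (-0.071 to 0.096) changed sign. Between clones, Sdc3 (-3.45 to 0.094) and Sdc1 (-0.15 to 0.026) changed sign. Within a virus, Sdc3 was lower in clone 12 both times (vector -2.46, NR6A1 -0.89), and Sdc1 went opposite ways (0.021 and -0.15). With 4 libraries, the calls of Gpc1 and Gpc6 were lost with no filter and under no other alternative in which they were tested (Gpc6 was not tested with the filter at 5 FPKM), Sdc4 lost its call under 5 of 10 alternatives, and Sdc3 and Gpc4 gained one under 2 and 4. Of the 10 genes, Gpc3 and Gpc5 were too low for any difference to be seen at this depth, and Gpc2 in clone 12.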
